A study of Mus musculus with 25 samples.

Results

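Gonadal white fat of mice kept for 12 weeks on a high-fat diet (HFD) was compared with that of mice kept for the same time on a low-fat diet (LFD). The compared arrays were those whose titles name 12 weeks of HFD (4 arrays) or 12 weeks of LFD (4 arrays), 8 of the 25 arrays in the series, and each array measured the RNA of 1 mouse. The titles alone decided which arrays were compared. All mice were male and heterozygous for the ApoE3L.CETP genotype, that is, they carried ApoE3Leiden, a variant of human apolipoprotein E, and human CETP, the protein that exchanges cholesteryl esters between lipoproteins. The LFD mice carried both transgenes too, and no mice without them were included. The HFD gave 60% fat, 20% carbohydrate and 20% protein with 0.25% cholesterol, against 10% fat, 70% carbohydrate and 20% protein in the LFD. No cholesterol content is given for the LFD. Fat and carbohydrate, and cholesterol if the LFD held less of it, differed together and cannot be told apart. Both diets began at the age of 12 weeks, and the labels give both groups an age of 34 weeks, which is more than the start and the 12 weeks of feeding add up to. RNA was hybridised to Affymetrix Mouse Gene 2.0 ST arrays. Values are on the log2 scale, a difference is HFD minus LFD with its standard error, and a difference of 1 is a doubling. A gene was called when limma's moderated test, fitted on all 25 arrays, gave a Benjamini-Hochberg adjusted p under 0.05 over 22180 genes. Groups were called separated when the range of the 4 HFD arrays did not overlap that of the 4 LFD arrays.

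White fat stores surplus energy as triglyceride, and its adipocytes can also make fatty acids from carbohydrate. When fat cells enlarge and die, monocyte-derived macrophages gather around them, take up the released lipid and digest it in lysosomes, while fibroblasts lay down collagen. The whole tissue was measured, so that fewer cells of a type and less RNA per cell cannot be told apart, and the same holds for higher values.

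Transcripts of hepatocytes were present in most of these fat arrays. Alb, which encodes serum albumin, was at 13.09, 12.96, 6.45 and 13.07 on HFD arrays 1 to 4, against 13.42, 13.35, 11.84 and 13.16 on LFD arrays 1 to 4. HFD array 3 was thus far below the rest, and LFD array 3 was the lowest of its group. The mean of 27 hepatocyte genes was 9.66, 9.14, 5.12 and 9.42 on the HFD arrays, against 10.89, 10.66, 7.48 and 10.13 on the LFD arrays. All 27 were lower under HFD, with a median difference of −1.56, and the only called one was Cyp2e1, a cytochrome P450 that fat also expresses (−0.98 ± 0.28, limma adjusted p = 0.0492), which was called in none of the 8 fits that left out 1 array. Xist, which in female cells coats and silences 1 X chromosome, was at 5.37, 5.03, 3.86 and 5.36 in HFD arrays and at 6.76, 6.46, 3.82 and 5.94 in LFD arrays, although only male mice were used. Epididymis transcripts were scarce, with a mean over 15 genes of 3.61 to 3.73 under HFD and 3.68 to 3.91 under LFD. Markers of white adipocytes were high in every array, with a mean over 14 genes of 11.76 to 12.0 under HFD and 11.89 to 12.08 under LFD. Array medians lay between 5.04 and 5.17, and arrays of the 2 groups correlated between 0.956 and 0.99 over transcript clusters. Where a list's count of 2 or more called genes moved by over 1.5 times with the hepatocyte mean as a covariate or without the pair of arrays 3, the new count is given as well.

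Of the 22180 genes, limma called 989 between the diets, 4.46% of those tested. The counts of called genes in the lists are to be read beside this share. Under HFD 695 were higher (3.13%) and 294 lower (1.33%), and 292 of the 989 differed at least 2-fold, 219 of them higher and 73 lower. The groups were separated for 2795 genes, or 12.6%, with HFD above LFD for 7.52% and below it for 5.08%. Of the called genes, 942 were also separated. Over all genes the median difference was −0.01, and 48% of differences were above 0. With the hepatocyte mean as a covariate 742 genes were called, 718 of the 989 among them. Without the arrays numbered 3 the count was 438, of which 421 were among the 989. Leaving out a single array gave 638 for HFD array 1, 598 for HFD array 3, 558 for LFD array 1 and 698 to 944 for the others.

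**Figure D1:**
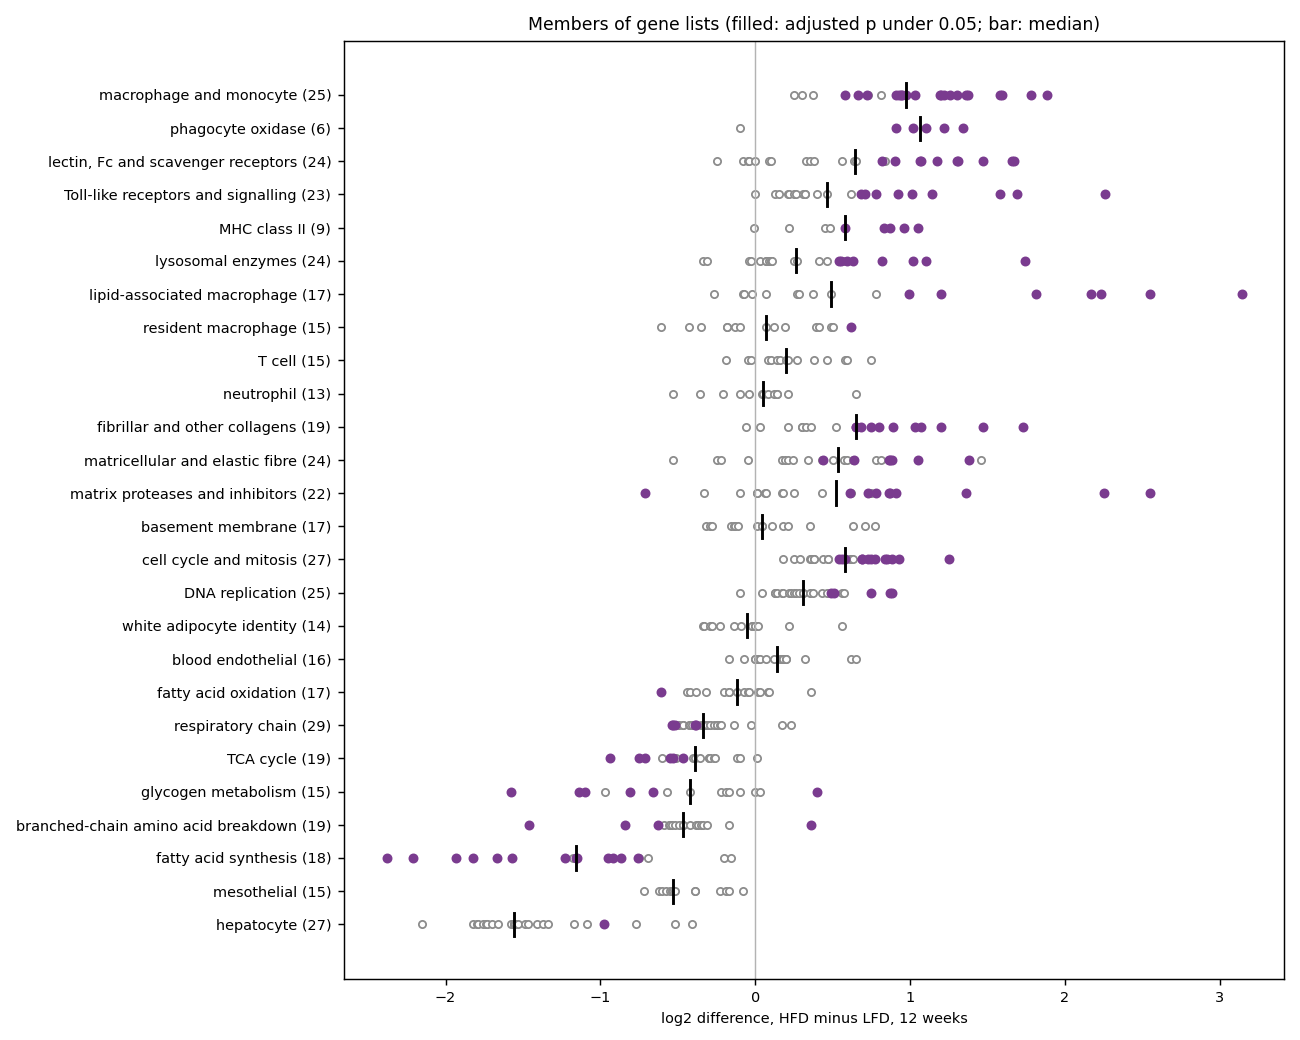
Differences of the single members of 26 gene lists (log2 scale, HFD minus LFD, 4 arrays each), 1 row per list with the number of measured genes in brackets; filled points passed the test over all genes and the bar marks the median of the list. Macrophage genes lie right of 0 with a median of 0.98, genes of fatty acid synthesis lie left of it with a median of −1.16, and all 27 hepatocyte genes lie left of it.

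Macrophage genes were higher under HFD. Of 25 markers of macrophages and monocytes, 20 rose and none fell, all 25 differences were above 0, and their median was 0.98. Mpeg1, a pore-forming protein of phagocytes, was at 10.28, 9.11, 10.04 and 9.73 under HFD, against 7.94, 8.16, 7.60 and 7.93 under LFD. Every HFD array was above every LFD array, HFD array 2 was the lowest of its group, and the difference was 1.88 ± 0.23 (limma adjusted p = 2.90e-04). Cd68, a glycoprotein of macrophage lysosomes, had 11.70, 10.77, 11.53 and 10.89 under HFD and 8.91, 9.53, 9.58 and 9.76 under LFD (1.78 ± 0.30). Tyrobp, the signalling adaptor of activating myeloid receptors (1.58 ± 0.26), Itgam, the alpha chain of complement receptor 3 (1.36 ± 0.22), Ptprc, the pan-leukocyte phosphatase CD45 (1.30 ± 0.21), Laptm5, a lysosomal protein of blood cells (1.22 ± 0.19), and Adgre1, the F4/80 antigen (1.20 ± 0.22), rose as well. Spi1, which encodes the myeloid transcription factor PU.1, rose by 1.19 ± 0.23. On the list's mean the groups did not overlap, with 8.55 to 9.20 under HFD and 7.64 to 7.95 under LFD, and 23 of the 25 genes were separated. The count of called genes was 16 with the hepatocyte mean as a covariate, 12 without the arrays 3 and 13 without HFD array 1, and all 25 genes were higher in HFD array 3 than in LFD array 3.

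Markers of lipid-associated macrophages, the lipid-laden cells around dying adipocytes, included some of the largest rises of the immune genes. Gpnmb, a membrane glycoprotein of lysosome-rich macrophages, was at 11.86, 10.07, 11.34 and 11.02 under HFD, against 7.15, 8.22, 7.86 and 8.51 under LFD (3.14 ± 0.55, adjusted p = 0.0018 by limma). Trem2, the lipid-sensing receptor of these cells, was at 8.10 to 9.35 under HFD and at 5.96 to 6.75 under LFD (2.23 ± 0.37). Itgax, which encodes CD11c, was at 8.92, 7.95, 9.52 and 8.46 under HFD and at 6.11, 6.81, 6.47 and 6.78 under LFD (2.17 ± 0.33). For each of the 3 genes the groups were separated, and HFD arrays 1 and 3 were the 2 highest. The collagen-cleaving protease gene Ctsk (1.81 ± 0.31), Lgals3, the galectin also known as Mac-2 (1.20 ± 0.21), and Lipa, the lysosomal acid lipase (0.99 ± 0.18), rose too, as did Mmp12, the macrophage elastase. In all 7 of 17 rose and none fell, with a median of 0.49, and the count stayed at 7 with the hepatocyte mean as a covariate, without the arrays 3 and without any single array. The other members of the list, among them genes that adipocytes express at high levels, did not pass the test.

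Genes of multinucleated, bone-resorbing osteoclasts rose in part. Atp6v0d2, a subunit of the proton pump that acidifies lysosomes, was at 10.18, 8.27, 9.51 and 9.10 under HFD, against 5.50, 6.20, 5.85 and 6.71 under LFD (3.20 ± 0.66, adjusted p = 0.00589 by limma). Tm4sf19, a tetraspanin-like protein of osteoclasts, was at 8.64, 7.42, 8.59 and 7.85 under HFD and at 5.04, 5.84, 5.28 and 5.41 under LFD (2.73 ± 0.49). Neither gene had overlapping groups, and HFD array 2 was the lowest HFD array in both. Mmp9, the gelatinase, was the only member that fell (−0.71 ± 0.17), from a list of 15 in which 5 rose; 3 rises were called without HFD array 1 or 3 or LFD array 1, 2 or 4. Without the arrays 3, 2 rises and no fall were called. Of 15 proton pump genes 2 rose, Atp6v0d2 and Atp6v1b2 (0.78 ± 0.12), with a list median of 0.22, and 1 was called without the arrays 3. Of 24 lysosomal enzymes 8 rose and none fell, with a median of 0.26. They included cathepsin S (Ctss), at 12.21, 10.87, 11.76 and 11.65 under HFD against 9.51, 10.12, 9.90 and 10.00 under LFD (1.74 ± 0.28). Legumain (Lgmn, 1.10 ± 0.18), alpha-galactosidase A (Gla, 1.02 ± 0.20), beta-glucuronidase (Gusb, 0.82 ± 0.18) and prosaposin (Psap, 0.55 ± 0.12) rose with it. The count was 6 with the covariate, 3 without the arrays 3, and 5 without HFD array 3 or LFD array 1.

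**Figure D2:**
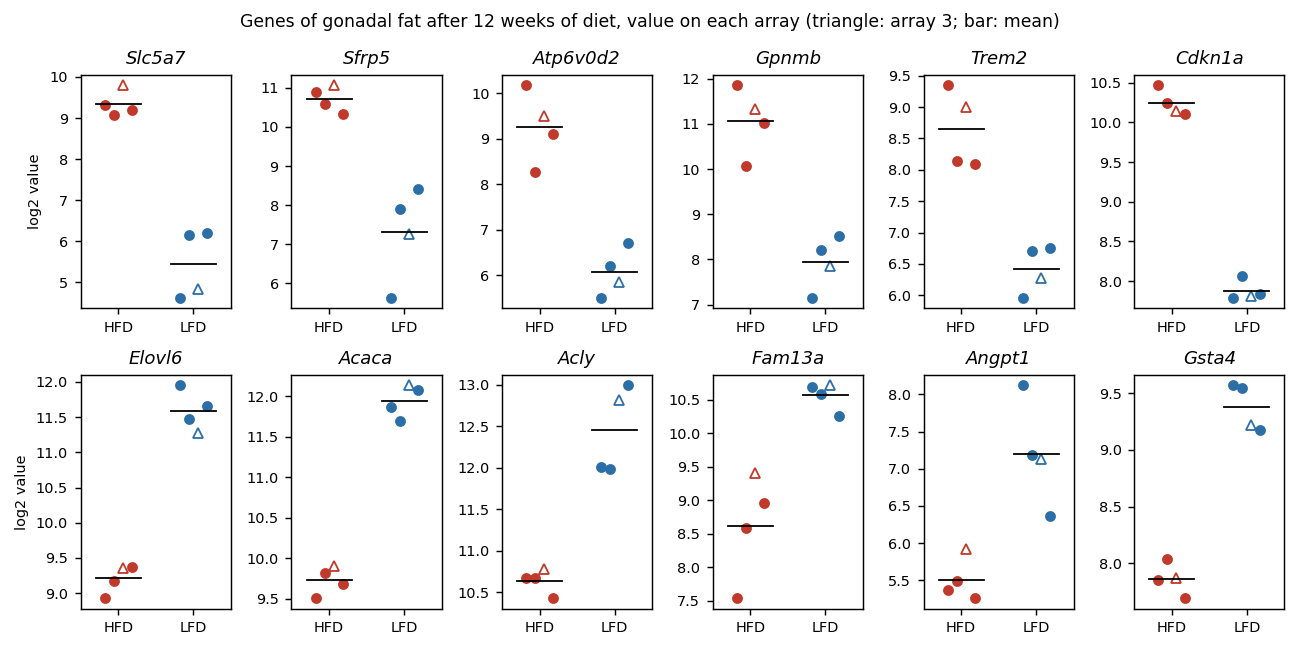
Values of 12 genes on each array after 12 weeks (log2 scale, HFD left and LFD right in each panel); circles are arrays 1, 2 and 4, triangles are arrays 3 and bars are means of 4 arrays. The groups do not overlap in any panel, and the triangles lie on the side of their own group.

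Receptors by which phagocytes sense and bind their targets rose. Among 24 lectin, Fc and scavenger receptors 10 rose and none fell, with a median of 0.65. Sirpb1a, an activating receptor of the signal-regulatory family, was at 6.78, 6.14, 6.75 and 6.43 under HFD and at 4.74, 5.28, 4.91 and 4.55 under LFD (1.66 ± 0.21). Clec12a (1.67 ± 0.30) and Cd300lb (1.47 ± 0.23), both of myeloid cells, and Olr1, a receptor for oxidised low-density lipoprotein (1.06 ± 0.21), were others. Of 23 Toll-like receptors and signalling partners, 9 rose and none fell, with a median of 0.46. Tlr13, which recognises bacterial ribosomal RNA, was at 8.70, 7.92, 9.05 and 8.03 under HFD, against 5.51, 5.98, 6.38 and 6.81 under LFD (2.26 ± 0.33). Cd180, a relative of Tlr4 (1.69 ± 0.27), Tlr8 (1.58 ± 0.28), Tlr1 (1.14 ± 0.16), Tlr7 (0.92 ± 0.20) and Tlr9 (0.68 ± 0.12) rose, and so did Pycard, the adaptor ASC of inflammasomes (0.71 ± 0.12). The phagocyte oxidase, which makes superoxide, had 5 of 6 listed genes higher, all but Hvcn1 (−0.10), with a median of 1.06. Its catalytic subunit Cybb was at 10.14, 9.59, 10.36 and 10.26 under HFD, against 8.30, 8.85, 8.88 and 8.96 under LFD (1.34 ± 0.23), and Cyba (1.22 ± 0.23), Ncf4 (1.10 ± 0.22) and Ncf1 (1.02 ± 0.21) rose as well. In 5 of 9 genes of MHC class II presentation values were higher, with a median of 0.58. The largest of these, H2-Ab1, was at 12.07, 11.88, 12.15 and 11.76 under HFD and at 10.57, 10.99, 11.15 and 10.94 under LFD (1.05 ± 0.19). H2-Eb1 (0.96 ± 0.19), H2-Aa (0.87 ± 0.19) and H2-DMa, which loads peptides (0.83 ± 0.17), followed. The numbers of called genes in these 4 lists without the arrays 3 were 8, 7, 3 and 3 in the order given.

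Chemokine genes rose in 6 of 24 cases and none fell, with a median of 0.33. Ccl8 was at 6.98, 6.55, 6.91 and 6.74 under HFD and at 5.08, 5.76, 5.52 and 5.66 under LFD (1.29 ± 0.28). Ccl9 (1.12 ± 0.21) and Cxcl16, which also binds oxidised lipoproteins (0.87 ± 0.17), rose too, and each of the 3 was called without any single array. Ccl2, the main attractant of monocytes, was at 8.79, 8.07, 7.53 and 7.76 under HFD, against 6.90, 6.07, 6.98 and 6.77 under LFD (1.36 ± 0.36, adjusted p = 0.0281 by limma). Its groups were separated, but it was called in 3 of the 8 fits that left out 1 array and had an adjusted p of 0.0634 with the hepatocyte covariate. The chemokine count was 3 without LFD array 1, 2 or 4, 3 with the hepatocyte covariate and 2 without the arrays 3. Of 26 chemokine and cytokine receptors 8 rose and none fell, with a median of 0.28. Il7r, a subunit of the receptors for interleukin 7 and TSLP, was at 9.69, 8.10, 9.44 and 8.92 under HFD, against 6.09, 6.50, 6.12 and 6.48 under LFD (2.74 ± 0.40, adjusted p = 6.60e-04). The chain Csf2ra of the GM-CSF receptor (1.11 ± 0.22), Ccr2, the receptor of Ccl2 (0.94 ± 0.19), Tnfrsf1b (0.94 ± 0.17) and Il10ra (0.93 ± 0.19) rose with it, and 5 receptors were called without the arrays 3. Among 21 cytokines 2 rose, Il1rn, the antagonist of interleukin 1 (1.26 ± 0.21), and Tgfb1, no longer called once HFD array 1, HFD array 3 or LFD array 1 was left out (0.74 ± 0.17). The list's median was 0.00, and 1 cytokine was called without the arrays 3. Tnf was at 6.08, 6.12, 6.24 and 5.74 under HFD and at 5.34, 5.20, 5.38 and 5.74 under LFD (0.63 ± 0.18, adjusted p = 0.0531), so that the array 4 of each diet had the same value. Il6 was low in both groups, 2.75 to 3.39 under HFD and 2.56 to 3.02 under LFD (0.25 ± 0.18). Saa3, the serum amyloid made in fat, had 9.06, 9.06, 7.47 and 8.63 under HFD, against 6.21, 7.08, 6.19 and 6.14 under LFD (2.15 ± 0.37). HFD array 3 was the lowest of its group and still above all LFD arrays. Ubd, a ubiquitin-like modifier induced by interferon and tumour necrosis factor, was at 8.47, 5.86, 7.65 and 6.12 under HFD and at 4.46, 4.46, 4.37 and 4.18 under LFD (2.66 ± 0.49). Of 21 genes listed for eicosanoid synthesis and reception 5 rose. They were the receptor gene Ptger2 (0.88 ± 0.22) and 4 others. Among the latter were Pla2g7, the platelet-activating factor hydrolase (1.49 ± 0.28), and the thromboxane synthase Tbxas1 (1.08 ± 0.19). In this list 3 were called without HFD array 1 or 3 or without both arrays 3. The complement receptors C3ar1 (1.48 ± 0.27) and C5ar1 (1.20 ± 0.26) were the 2 of 17 complement genes that rose, and 1 was called without the arrays 3.

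Markers of other immune cells passed the test less widely, and these counts were not tested against the macrophage counts. No marker of T cells (15 genes, median 0.20), neutrophils (13 genes, 0.05) or mast cells (10 genes, −0.03) passed. Of 15 resident macrophage markers 1 rose, the mannose receptor Mrc1 (0.62 ± 0.17), with a median of 0.07 and called in 2 of the 8 fits that left out 1 array. Klrk1, the receptor NKG2D, was the only one of 12 natural killer and cytotoxic markers that rose (0.85 ± 0.16), and Rnase2a, an eosinophil-type ribonuclease, the only one of 8 eosinophil markers. Rnase2a was at 6.60, 7.16, 7.10 and 8.47 under HFD, against 4.26, 5.17, 5.04 and 4.29 under LFD (2.64 ± 0.48), while Il5ra, the interleukin 5 receptor of eosinophils, was at 3.72 to 4.18 under HFD and 3.81 to 4.41 under LFD. Of 14 dendritic cell markers 3 rose, Itgax among them, with the transcription factor gene Irf8 (1.02 ± 0.20, and 0.61 and called as the mean of its 2 clusters) and Flt3, whose call was lost without HFD array 3. Of 13 B cell markers 2 rose, and neither was called without HFD array 1 or 3 or LFD array 1; 1 was called with the covariate and none without the arrays 3.

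Extracellular matrix genes of the interstitial kind rose. Of 19 fibrillar and other collagens 11 rose and none fell, with a median of 0.65. Col6a1, a chain of the collagen VI network around adipocytes, was at 11.23, 11.25, 11.32 and 11.43 under HFD, against 9.80, 10.22, 10.17 and 10.24 under LFD (1.20 ± 0.18, adjusted p = 6.60e-04 by limma). The other chains Col6a2 (1.07 ± 0.17) and Col6a3 (0.89 ± 0.15) were separated as well. Col6a5, a further chain of that family, was at 9.82, 8.81, 8.97 and 9.96 under HFD and at 7.55, 8.15, 8.08 and 7.92 under LFD (1.47 ± 0.32). Col1a1 was at 10.54, 10.07, 10.51 and 10.34 under HFD and at 9.27, 9.50, 9.45 and 9.13 under LFD (1.03 ± 0.18), and Col12a1, which coats fibrils, rose by 1.73 ± 0.38. All 19 collagens were higher in HFD array 3 than in LFD array 3, and 10 were called with the covariate and 6 without the arrays 3. Of 14 genes that modify or crosslink collagen 3 rose, with a median of 0.36, and all 14 differences were above 0. They were Pcolce2, an enhancer of procollagen cleavage, at 10.17, 9.88, 10.37 and 10.06 under HFD against 8.16, 8.61, 8.69 and 8.97 under LFD (1.51 ± 0.22), the crosslinking lysyl oxidase Lox (0.80 ± 0.18) and the lysyl hydroxylase Plod2 (0.73 ± 0.14).

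Matricellular and elastic fibre genes rose in 7 of 24 cases with none lower and a median of 0.54, and in 3 or 4 of 24 without HFD array 2 or 3 or LFD array 1, 2 or 3. The count was 4 with the hepatocyte covariate and 1 without the arrays 3. Postn, which encodes periostin, was called without any single array and was at 11.02, 10.36, 10.41 and 10.98 under HFD, against 9.15, 9.46, 9.43 and 9.21 under LFD (1.38 ± 0.20). Among 22 proteases and inhibitors 9 rose and 1 fell, with a median of 0.52, and 4 or 5 rose if array 1 of either diet, HFD array 3 or LFD array 2 was left out. Without the arrays 3, 3 rises and no fall were called. Mmp12 was at 11.19, 9.63, 10.93 and 10.57 under HFD and at 6.66, 8.24, 8.23 and 8.98 under LFD (2.55 ± 0.50). Adam8, a protease of leukocytes, was at 8.66, 7.83, 8.74 and 8.33 under HFD and at 5.50, 6.57, 6.23 and 6.25 under LFD (2.25 ± 0.37). Both had HFD array 2 as their lowest HFD array and no overlap. Timp1, an inhibitor of metalloproteinases, rose by 1.36 ± 0.26. By contrast 0 of 17 basement membrane genes passed limma's test after adjustment, and their median was 0.04. Col4a2, one of the common collagen IV chains, was separated at 10.08 to 10.20 under HFD and 9.29 to 9.55 under LFD, with a difference of 0.77 ± 0.29 (adjusted p = 0.159). The difference between these 2 lists was not tested. Of 20 integrins 7 rose and none fell, with a median of 0.32: besides Itgam and Itgax these included Itgb2, the leukocyte beta chain (1.74 ± 0.29), Itga4 (1.10 ± 0.21), Itgb7 (0.90 ± 0.14) and Itgb1 (0.43 ± 0.09). Acta2, the smooth muscle actin of myofibroblasts, was at 11.08, 11.19, 11.23 and 11.07 under HFD and at 9.98, 10.15, 10.10 and 10.32 under LFD (1.00 ± 0.20), the only one of 12 pericyte and smooth muscle markers that rose. None of 16 progenitor and fibroblast markers or 16 blood endothelial markers was called, with medians of 0.28 and 0.14. All 15 mesothelial markers were lower under HFD, with a median of −0.53, and none was called.

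**Figure D3:**
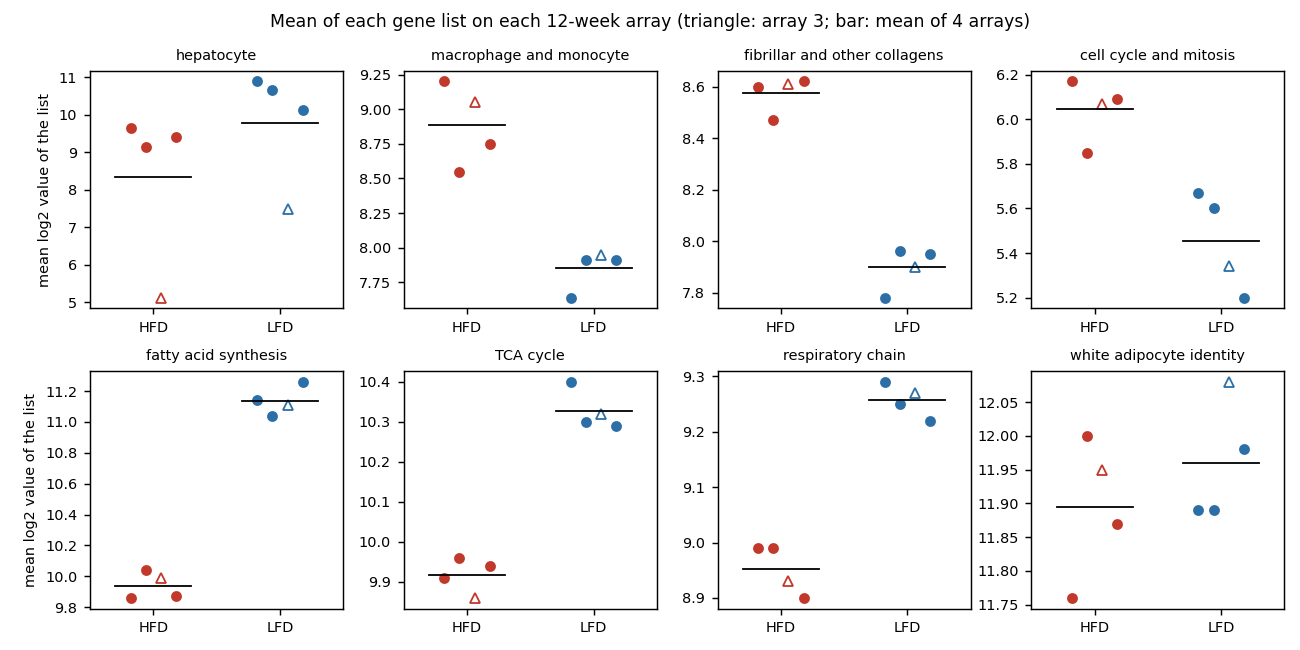
Mean of all measured genes of 8 lists on each array (log2 scale, HFD left and LFD right in each panel); circles are arrays 1, 2 and 4, triangles are arrays 3 and bars are means of 4 arrays. The hepatocyte mean falls to 5.12 in HFD array 3, whereas for the macrophage, collagen, mitosis, fatty acid synthesis, tricarboxylic acid cycle and respiratory chain lists the groups do not overlap.

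Genes of cell division were higher under HFD. All 27 mitosis genes had differences above 0, with a median of 0.58, and 13 rose. Mki67, the Ki-67 antigen of dividing cells, was at 8.25, 7.83, 8.41 and 8.29 under HFD, against 7.64, 7.19, 6.66 and 6.31 under LFD (1.25 ± 0.22, adjusted p = 0.00202 by limma). LFD arrays 1 and 2 were the highest of their group, and the groups did not overlap. Kif11, a motor of the spindle, was at 6.39, 6.06, 6.53 and 6.44 under HFD and at 5.76, 5.60, 5.41 and 5.14 under LFD (0.88 ± 0.14). Tpx2 (0.84 ± 0.18), Cenpe (0.69 ± 0.14) and Aurka (0.69 ± 0.15), which act at spindles and kinetochores, were called without any single array as well. The list count was 11 with the covariate, 5 without the arrays 3, and, with 1 array left out, 6 for HFD array 1, 7 for HFD array 4 and 5 for LFD array 4, and all 27 genes were higher in HFD array 3 than in LFD array 3. Of 25 DNA replication genes 5 rose, with a median of 0.31. E2f8, an E2F-family repressor, was at 5.74, 5.21, 5.62 and 5.48 under HFD and at 5.06, 4.57, 4.55 and 4.37 under LFD (0.88 ± 0.15). The helicase subunit Mcm5 was at 6.70, 6.60, 6.96 and 6.53 under HFD and at 5.87, 5.86, 5.80 and 5.79 under LFD (0.87 ± 0.15), and Mcm6 rose by 0.75 ± 0.15. These 3 remained when HFD array 1, 3 or 4 or LFD array 2 or 4 was left out, and the other 2 did not. The replication count was 3 with the covariate and 3 without the arrays 3.

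At the same time Cdkn1a, which encodes the cell cycle inhibitor p21, was at 10.47, 10.24, 10.14 and 10.11 under HFD, against 7.79, 8.07, 7.81 and 7.84 under LFD. The difference was 2.36 ± 0.28 (limma adjusted p = 2.22e-04), and the lowest HFD array was far above the highest LFD array. The only other one of 22 p53 targets and cell cycle inhibitors that rose was Aen, an exonuclease (0.42 ± 0.11), which was called in 1 of the 8 fits that left out 1 array. The list's median was 0.24.

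Promoter sequences are shown for called genes of cell division and of lipid synthesis, because motifs of such genes are known. The RefSeq windows (GRCm38.p6) are 300 bases long and lie around an annotated start, and 5 elements besides the sterol element were searched on both strands by their letters. The CHR element (TTTGAA), bound by the complex that represses and activates mitotic genes, was found in 17 of 23 mitosis genes with a promoter entry (73.9%), against 20.2% of all 27025 genes with one. The CCAAT box (CCAAT), the site of NF-Y, was in the same number, 17 of 23, against 41.1% of all genes, and in 15 of 21 replication genes. The E2F site (TTTCCCGC) was in 4 of 21 replication genes and 0 of 23 mitosis genes, against 1.2% of all genes. The windows of the 4 called members of these lists with the smallest p that held a motif follow, with the CCAAT boxes and CHR elements of either strand in capitals; no matches overlap in them.
Kif11 (chr19:37376132-37376431, plus strand): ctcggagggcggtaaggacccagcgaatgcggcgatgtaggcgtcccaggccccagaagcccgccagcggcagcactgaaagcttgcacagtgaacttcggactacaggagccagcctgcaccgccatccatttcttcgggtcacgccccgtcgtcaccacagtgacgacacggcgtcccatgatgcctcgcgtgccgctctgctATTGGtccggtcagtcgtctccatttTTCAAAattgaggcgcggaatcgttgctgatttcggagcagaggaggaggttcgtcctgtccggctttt
Mcm5 (chr8:75109259-75109558, plus strand): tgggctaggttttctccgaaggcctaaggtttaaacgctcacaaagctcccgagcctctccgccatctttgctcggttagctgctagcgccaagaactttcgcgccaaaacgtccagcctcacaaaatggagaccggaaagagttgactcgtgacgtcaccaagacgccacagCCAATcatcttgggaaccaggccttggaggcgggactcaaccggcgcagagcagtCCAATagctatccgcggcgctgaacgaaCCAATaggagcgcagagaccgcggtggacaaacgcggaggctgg
E2f8 (chr7:48881547-48881846, minus strand): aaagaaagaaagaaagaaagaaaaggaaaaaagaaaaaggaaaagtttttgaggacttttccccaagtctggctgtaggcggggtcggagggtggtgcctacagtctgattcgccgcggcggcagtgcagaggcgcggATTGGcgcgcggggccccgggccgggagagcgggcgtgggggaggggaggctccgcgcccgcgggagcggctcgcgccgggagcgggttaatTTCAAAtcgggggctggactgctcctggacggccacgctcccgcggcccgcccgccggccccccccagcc
Mki67 (chr7:135716330-135716629, minus strand): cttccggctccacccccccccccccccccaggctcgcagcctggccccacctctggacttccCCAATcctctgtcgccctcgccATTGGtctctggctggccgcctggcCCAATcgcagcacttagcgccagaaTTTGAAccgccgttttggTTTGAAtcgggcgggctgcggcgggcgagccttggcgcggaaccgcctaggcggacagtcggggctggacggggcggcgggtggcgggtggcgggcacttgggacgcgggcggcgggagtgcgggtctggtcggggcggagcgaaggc
Kif11 and E2f8 each hold 1 CCAAT box and 1 CHR element, Mki67 holds 3 CCAAT boxes and 2 CHR elements, and Mcm5 holds 3 CCAAT boxes. A match is a stretch of letters and not a measured binding site. In the immune lists, the PU.1 site (GAGGAAGT) was in 3 of 17 macrophage promoters, against 3.7% of all genes, and in 1 of 13 of the called ones. The CLEAR element (TCACGTGA), the site of TFEB, was in 4 of 22 lysosomal enzyme promoters, against 1.1% of all genes.

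Among the most raised single genes were a choline transporter and a Wnt antagonist. Slc5a7, the high-affinity choline transporter, was at 9.31, 9.07, 9.80 and 9.20 under HFD, against 4.62, 6.16, 4.83 and 6.20 under LFD (3.89 ± 0.43), and its adjusted p was the smallest of all genes (1.63e-04 by limma). No LFD array came near the HFD arrays, the highest being at 6.20 against a lowest HFD array of 9.07. Among 15 genes of choline and acetylcholine handling it was the only one that rose, while 2 fell: the choline transporter-like gene Slc44a3 (−0.96 ± 0.19) and the cholinesterase gene Bche (−0.77 ± 0.18), no longer called if HFD array 1, HFD array 3 or LFD array 1 was left out. Of these falls 1 was called without the arrays 3. Sfrp5, a secreted Wnt antagonist of adipocytes, was at 10.90, 10.60, 11.07 and 10.34 under HFD and at 5.63, 7.90, 7.27 and 8.42 under LFD (3.42 ± 0.55). It was the only one of 23 Wnt ligands and antagonists that rose, and 0 fell, so that 4.3% of the list was called, against 4.46% of all genes. Of 17 imprinted genes, which are expressed from the allele of a single parent, 3 rose and none fell, with a median of 0.08. Peg3 was at 10.38, 10.75, 10.68 and 10.71 under HFD and at 9.29, 8.35, 8.24 and 8.65 under LFD (2.00 ± 0.47). Mest, a marker of fat expansion, was at 11.91, 11.98, 11.97 and 11.92 under HFD and at 11.27, 10.98, 10.32 and 10.93 under LFD (1.07 ± 0.25). Zim1, a neighbour of Peg3, rose by 1.37 ± 0.32, with no call once HFD array 2 or LFD array 2 was left out. None of the 3 was called without the arrays 3. Hspb7, a small heat shock protein of muscle and the only called one of 14 heat shock genes, was at 9.68, 10.42, 9.83 and 9.82 under HFD and at 7.46, 8.05, 8.55 and 8.91 under LFD (1.70 ± 0.36). Angpt1, the ligand that activates the endothelial Tie2 receptor, was at 5.37, 5.49, 5.92 and 5.26 under HFD, against 8.12, 7.19, 7.13 and 6.36 under LFD (−1.69 ± 0.33, and −1.07 and called as the mean of its 2 clusters). Of 18 VEGF, angiopoietin and Tie genes 1 other fell, Vegfa (−0.74 ± 0.21), which was called in 2 of the 8 fits that left out 1 array and neither with the covariate nor without the arrays 3.

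Genes of fatty acid synthesis were lower under HFD. Of 18 measured, 13 fell and none rose, 15 were separated, and the median difference was −1.16. The list's mean was 9.86 to 10.04 under HFD and 11.04 to 11.26 under LFD. Acaca, which commits acetyl-CoA to fatty acid synthesis, was at 9.51, 9.82, 9.90 and 9.69 under HFD, against 11.87, 11.69, 12.13 and 12.08 under LFD (−2.21 ± 0.27, adjusted p = 2.89e-04 by limma). Its mitochondrial counterpart Acacb was at 6.96, 7.72, 8.12 and 7.68 under HFD and at 9.62, 9.71, 9.49 and 9.37 under LFD (−1.93 ± 0.36). Both genes had HFD array 1 as the lowest array. Acly, which makes cytosolic acetyl-CoA from citrate, was at 10.67, 10.67, 10.78 and 10.43 under HFD and at 12.01, 11.99, 12.82 and 12.99 under LFD (−1.82 ± 0.43), and its adjusted p was 0.061 without LFD array 4. Elovl6, the elongase of palmitate, was at 8.93, 9.18, 9.36 and 9.37 under HFD and at 11.95, 11.48, 11.27 and 11.66 under LFD (−2.38 ± 0.56), with an adjusted p of 0.0521 without LFD array 1. The acetyl-CoA and acetoacetyl-CoA synthetases Acss2 (−1.67 ± 0.36) and Aacs (−1.57 ± 0.24), the desaturase Fads1 (−1.23 ± 0.22), Fasn, the fatty acid synthase (−1.16 ± 0.22), Thrsp (−0.95 ± 0.19) and the citrate carrier Slc25a1 (−0.87 ± 0.17) fell and were called without any single array. Mlxipl, the gene of ChREBP, which switches on these enzymes when carbohydrate is plentiful, was at 8.93, 9.03, 7.99 and 8.41 under HFD and at 9.71, 9.50, 9.81 and 9.95 under LFD (−1.15 ± 0.21). Scd1, the main desaturase, was close to the top of the scale, at 13.40 to 13.49 under HFD and 13.52 to 13.67 under LFD (−0.16 ± 0.09, adjusted p = 0.39). Hepatocytes also make fatty acids, and the hepatocyte mean was lower under HFD. With that mean as a covariate 13 genes of the list were called and the median was −1.05, and without the arrays 3 the number was 9. In HFD array 3 Acaca was 2.23 below LFD array 3 and 17 of the 18 genes were below it, but the hepatocyte mean of this pair differed the same way, 5.12 against 7.48, and its part in the result was not tested.

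Of 16 genes of cholesterol synthesis 1 rose and 1 fell. Differences were below 0 for 13 of the 16, 8 were separated with HFD lower and 1 with HFD higher, and the median was −0.33. Hmgcs1, which forms the precursor of mevalonate, was at 11.45, 11.21, 11.37 and 11.39 under HFD, against 10.67, 10.63, 10.14 and 10.61 under LFD (0.84 ± 0.13, adjusted p = 7.44e-04 by limma). Fdft1, the squalene synthase, was at 8.75, 9.30, 9.48 and 9.05 under HFD and at 10.12, 10.00, 9.92 and 9.98 under LFD (−0.86 ± 0.19). Both were separated in opposite directions, and the other 14 genes were not called. The sterol regulatory element (TCACNCCAC, both strands) was in 1.4% of all promoters, in 1 of 13 promoters of cholesterol synthesis and 1 of 16 of fatty acid synthesis. These were Hmgcs1, which rose, and Mlxipl, which fell, and their windows follow with that element and, in Hmgcs1, 4 CCAAT boxes of either strand in capitals.
Hmgcs1 (chr13:119690101-119690400, plus strand): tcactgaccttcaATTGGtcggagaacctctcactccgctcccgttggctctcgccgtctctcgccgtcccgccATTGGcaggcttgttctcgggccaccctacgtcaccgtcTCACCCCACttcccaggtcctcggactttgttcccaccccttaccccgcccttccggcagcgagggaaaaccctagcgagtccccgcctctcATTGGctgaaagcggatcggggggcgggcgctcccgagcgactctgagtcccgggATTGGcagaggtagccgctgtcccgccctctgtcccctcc
Mlxipl (chr5:135106641-135106940, plus strand): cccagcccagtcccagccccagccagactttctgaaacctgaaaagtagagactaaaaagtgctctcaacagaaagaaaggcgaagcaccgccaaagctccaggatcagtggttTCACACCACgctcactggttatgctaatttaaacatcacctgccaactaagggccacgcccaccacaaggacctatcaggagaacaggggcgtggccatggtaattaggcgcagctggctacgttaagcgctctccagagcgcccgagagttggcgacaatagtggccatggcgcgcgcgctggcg
The sterol element reads TCACCCCAC in Hmgcs1 and TCACACCAC in Mlxipl. Among 15 genes of sterol efflux and lipoprotein handling 4 rose and none fell, with a median of 0.04. The phospholipid transfer protein Pltp was at 12.29, 11.63, 12.29 and 11.64 under HFD and at 10.43, 10.88, 10.91 and 10.75 under LFD (1.22 ± 0.19), and Abcg1, a sterol exporter of macrophages, at 8.58, 8.60, 8.94 and 8.40 under HFD and 6.95, 7.62, 7.93 and 7.64 under LFD (1.09 ± 0.21). Lipa was among them too. Of 21 genes of fatty acid uptake and triglyceride assembly 2 fell and no member rose, the median being −0.08, and 0 or 1 was called without HFD array 1 or 4 or LFD array 1, 3 or 4 and none without the arrays 3. Of 19 lipid droplet and lipolysis genes 1 fell (5.3%, against 4.46% of all genes called), Pnpla3 (−0.89 ± 0.25), with −0.09 as the list's median. Pnpla3 was called in 1 of the 8 fits that left out 1 array.

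Mitochondrial genes of pyruvate and the tricarboxylic acid cycle were lower under HFD. Of 19 measured 6 fell, none rose, 14 were separated and the median was −0.39. Pdha1, the catalytic subunit of pyruvate dehydrogenase, was at 9.67, 9.69, 9.56 and 9.67 under HFD and at 10.48, 10.30, 10.44 and 10.37 under LFD (−0.75 ± 0.14, adjusted p = 0.00264 by limma). Its partner Pdhb was at 10.40, 10.17, 9.90 and 10.45 under HFD and at 11.31, 10.91, 11.24 and 11.21 under LFD (−0.94 ± 0.20). Pdk1, a kinase that inhibits this enzyme, was at 7.06, 6.65, 6.81 and 6.97 under HFD and at 8.07, 8.10, 7.76 and 7.76 under LFD (−1.05 ± 0.19). The enzyme and its inhibitor were thus both lower. Suclg2, of succinyl-CoA ligase, fell by 0.71 ± 0.16. The list count was 5 with the covariate, 1 without the arrays 3, and 3 if array 1 of either diet or HFD array 3 was left out. Of 29 respiratory chain genes 5 fell, 19 were separated with HFD lower and the median was −0.34. None of the 5 was called in all 8 fits without 1 array, and the count was 1 without HFD array 3 or LFD array 1, 3 without HFD array 1 or 4 or LFD array 3 or 4, 3 with the covariate and 0 without the arrays 3. The list's mean was 8.90 to 8.99 under HFD and 9.22 to 9.29 under LFD. Of 19 genes of branched-chain amino acid breakdown 3 fell and 1 rose, 17 were separated with HFD lower and the median was −0.48. The riser, Bcat1, the cytosolic aminotransferase (0.36 ± 0.10), was called in none of the 8 fits that left out 1 array. Nat8l, which acetylates aspartate, was in the list but is not an enzyme of that breakdown. It was at 6.40, 6.93, 7.66 and 6.58 under HFD and at 8.13, 8.11, 8.50 and 8.66 under LFD (−1.46 ± 0.28). The other falls were Ivd (−0.84) and Acadsb (−0.63). Nat8l was the only one called without HFD array 1 or without HFD array 3. Without the arrays 3, 1 fall was called, again Nat8l, so neither Ivd nor Acadsb was called in these fits. With the hepatocyte covariate 2 falls and no rise of the list were called. Fatty acid oxidation had 1 of 17 genes lower, the enoyl-CoA hydratase Echs1 (−0.61 ± 0.14), with a median of −0.12, and the mitochondrial ribosome 1 of 23, Mrps35 (−0.54 ± 0.11), with a median of −0.14. These were 5.9% and 4.3% of the lists, against 4.46% of all genes.

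Glycogen genes fell in 5 of 15 cases and rose in 1, with a median of −0.42. The branching enzyme Gbe1 was at 8.95, 9.14, 8.95 and 9.30 under HFD and at 10.24, 10.05, 10.20 and 10.26 under LFD (−1.10 ± 0.21). The phosphorylase Pygl was at 8.47, 8.73, 8.47 and 8.70 under HFD and at 9.83, 9.81, 9.56 and 9.75 under LFD (−1.14 ± 0.25), so that genes of both synthesis and breakdown were lower. Ppp1r3b, which targets a phosphatase to glycogen, fell by 1.58 ± 0.39 but not when HFD array 3 or LFD array 4 was set aside, and the list had 3 falls if either of these or LFD array 1 was left out and 2 without the arrays 3. Both Pygl and Ppp1r3b are abundant in liver, and with the hepatocyte covariate they were at −1.09 and −1.28, both called. Whether liver transcripts shared in their falls was not tested. In the insulin signalling list 3 of 15 fell, with a median of −0.26, and 1 was called without HFD array 1 or without the arrays 3. Pik3r1, the regulatory subunit of phosphoinositide 3-kinase, was at 10.18, 10.15, 10.19 and 10.12 under HFD and at 10.87, 10.90, 11.31 and 11.03 under LFD (−0.87 ± 0.15). Slc2a4, the insulin-responsive glucose transporter GLUT4, was at 8.23, 8.77, 8.71 and 8.45 under HFD and at 9.44, 9.30, 9.79 and 9.62 under LFD and fell by 1.00 ± 0.23, with a limma adjusted p of 0.0523 without HFD array 1.

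Genes that mark white adipocytes were not called. Of 14 none passed, with a median of −0.06. Adipoq, which encodes adiponectin, was at 11.18 to 11.58 under HFD and 11.32 to 11.58 under LFD (−0.02 ± 0.16, adjusted p = 0.981 by limma), a difference whose sign changed with quantile normalization (0.00) or centring on medians (0.01). Lep, leptin, was at 13.08, 13.26, 12.98 and 13.13 under HFD and at 12.15, 12.38, 12.79 and 12.90 under LFD (0.56 ± 0.22, adjusted p = 0.182): separated, but near the top of the scale and not called. Pparg, the adipogenic regulator, was at 10.63 to 10.77 under HFD and 10.73 to 11.37 under LFD (−0.28 ± 0.24). Among 17 adipogenic factors 1 fell (5.9%, against 4.46% of all genes called), Klf15 (−0.78 ± 0.18). Ucp1, the thermogenic uncoupler, was low, 3.78 to 4.52 under HFD and 3.77 to 4.25 under LFD, while among 13 thermogenic genes Otop1, a proton channel, rose by 1.46 ± 0.27 and Ppargc1a, the mitochondrial coactivator, fell by 0.76 ± 0.18 and was not called without HFD array 1 or LFD array 1. Otop1 alone of that list was called without the arrays 3. Of 9 adipokines Metrnl rose by 0.91 ± 0.17 and 2 fell, Nrg4 (−0.90 ± 0.25) and Rbp4 (−0.74 ± 0.19), called in 1 and 3 of the 8 fits that left out 1 array. Neither fall was called with the covariate or without the arrays 3. Fam13a, a gene near a locus for body fat distribution, was at 7.54, 8.59, 9.40 and 8.96 under HFD and at 10.69, 10.59, 10.71 and 10.26 under LFD (−1.94 ± 0.38). HFD arrays spread widely there, and all were below the LFD arrays.

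Of 22 glutathione genes and NRF2 targets 2 fell and 1 rose, the haem oxygenase gene Hmox1 (0.89 ± 0.23), called in 3 of the 8 fits that left out 1 array. Without the arrays 3, 1 fall was called. Of 18 steroid receptors and enzymes 3 fell and 1 rose, Srd5a3 (0.37 ± 0.11), a reductase of the steroid 5-alpha family, called in 2 of those 8 fits. In the steroid list 2 falls and no rise were called without the arrays 3. Gsta4, the glutathione transferase for the lipid aldehyde 4-hydroxynonenal, was at 7.85, 8.04, 7.87 and 7.69 under HFD and at 9.57, 9.55, 9.22 and 9.18 under LFD (−1.52 ± 0.20, adjusted p = 3.22e-04 by limma). Hsd11b1, which regenerates active glucocorticoid, was at 7.93, 8.11, 7.35 and 8.02 under HFD and at 9.47, 9.27, 8.98 and 9.09 under LFD (−1.35 ± 0.23). Esr1, the oestrogen receptor alpha, fell by 0.88 ± 0.18 and Cp, the copper-carrying ferroxidase ceruloplasmin, by 1.17 ± 0.18. These 4 are expressed in liver too, and with the hepatocyte covariate they were at −1.41, −1.22, −0.92 and −1.02, all called. The part of liver transcripts in these falls was not tested. Tst, a mitochondrial sulphur transferase (−1.40 ± 0.26), and Ddo, the D-aspartate oxidase (−1.14 ± 0.15), also fell. Of 16 clock genes 4 fell and 1 rose, with a median of −0.42. Per3 was at 7.63, 8.52, 8.02 and 7.98 under HFD and at 9.01, 9.18, 9.15 and 9.01 under LFD (−1.05 ± 0.21). Arntl, the clock activator BMAL1, was at 7.19, 6.59, 6.46 and 7.24 under HFD and at 6.12, 5.65, 5.99 and 6.00 under LFD (0.93 ± 0.23), and was no longer called once HFD array 1, HFD array 4 or LFD array 2 was left out. The number of clock genes that fell was 1 or 2 without any single array except HFD array 2, without which it was 3, and 1 without the arrays 3. The time of day of tissue collection is not given in the labels.

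Of the 989 called genes 741 were in none of the 77 lists. The 5 of them with the largest rise were Cdkl4 (2.84 ± 0.52), Tnip3 (2.20 ± 0.31), Rgs1 (2.12 ± 0.38), Slc37a2 (1.97 ± 0.31) and Lipf (1.97 ± 0.46). Tnip3, an inhibitor of nuclear factor kappa B signalling, was at 8.82, 8.08, 8.53 and 8.78 under HFD and at 6.05, 6.76, 6.50 and 6.11 under LFD, and Slc37a2, a sugar-phosphate carrier of macrophages, at 8.28, 7.43, 7.94 and 8.03 under HFD and 5.59, 6.20, 5.99 and 6.01 under LFD. Lipf, a gastric lipase gene, was at 6.78, 6.41, 6.99 and 6.55 under HFD and at 4.38, 5.35, 3.95 and 5.16 under LFD. Each of these 3 was separated. The 5 with the largest fall were Angptl8 (−1.99 ± 0.47), Cldn22 (−1.74 ± 0.27), Cyp4a12b (−1.63 ± 0.41), Snhg11 (−1.55 ± 0.27) and Acsm5 (−1.47 ± 0.40). Angptl8, an inhibitor of lipoprotein lipase induced by feeding, was at 8.24, 8.57, 7.27 and 7.48 under HFD and at 8.94, 8.54, 10.57 and 11.48 under LFD, where LFD array 2 lay within the HFD range. It and Cyp4a12b were called in 4 of the 8 fits that left out 1 array, and Acsm5 in 2 of them. At 8 weeks Cyp4a12b was at 0.28 and Acsm5 at −0.55, while the hepatocyte list had medians of −1.56 at 12 weeks and 2.09 at 8 weeks. Whether liver transcripts had a part in these falls was not tested. Cldn22, a claudin, was at 5.62, 6.13, 5.36 and 6.13 under HFD and at 8.02, 7.77, 7.26 and 7.15 under LFD. Among the 10 genes with the smallest p were also Unc79, of a sodium leak channel (1.62 ± 0.21), Ptchd4 (1.42 ± 0.19) and Net1 (−1.17 ± 0.16).

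By the labels the mice were 34 weeks old at 12 weeks of diet, 20 weeks old at 8 weeks and 16 weeks old at 4 weeks. Weeks of diet and age thus cannot be told apart in comparisons between times. At 8 weeks, in 4 other mice of each diet, the called genes mostly lay on the same side. Of the 989 genes, 967 had the same sign at 8 weeks (97.8%), against 58.7% of the genes not called at 12 weeks, and 335 were called there too, where 533 genes or 2.4% were called in all. At 4 weeks, with 3 HFD and 4 LFD arrays, 915 had the same sign and 42 were called, of 47 in all (0.212%). No share of same sign was computed there for genes not called. The epididymis mean was 9.06 on HFD array 1 and 5.05 on LFD array 1 of that time, against 3.71 to 3.91 on the others. The part of these transcripts in the 4-week values was not tested. The 695 genes higher at 12 weeks had median differences of 0.28 at 4 weeks, 0.55 at 8 weeks and 0.82 at 12 weeks, and the 294 lower ones −0.33, −0.58 and −0.75. The genes were chosen by their 12-week values, which favours a larger size at 12 weeks, so these medians are a description. Slc5a7 was at 3.76 at 8 weeks and 3.89 at 12, Sfrp5 at 4.05 and 3.42, Acaca at −2.31 and −2.21, Mpeg1 at 1.40 and 1.88, and Col1a1 at 0.36 and 1.03.

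No gene passed the test of the difference itself. The diet difference at 12 weeks minus that at 8 weeks was called for 0 of 22180 genes by limma after adjustment (0%), with 1127 at an unadjusted p under 0.05. For 12 minus 4 weeks it was also 0 (0%), with 1236. The smallest p values for 12 minus 8 weeks belonged to Arhgef19 (−0.99), Fam110c (0.67) and Zfp263 (0.57), with an adjusted p of 0.973. Arhgef19 was at −0.57 at 12 weeks and 0.42 at 8 weeks. For 12 minus 4 weeks they belonged to Col6a5 (2.65, adjusted p = 0.277), Ifi209, an interferon-inducible gene (1.71), and Stil, of centriole duplication (1.04). The hepatocyte list had a median diet difference of −1.56 at 12 weeks and 2.09 at 8 weeks, so that liver transcripts ran opposite ways at these times.

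**Figure D4:**
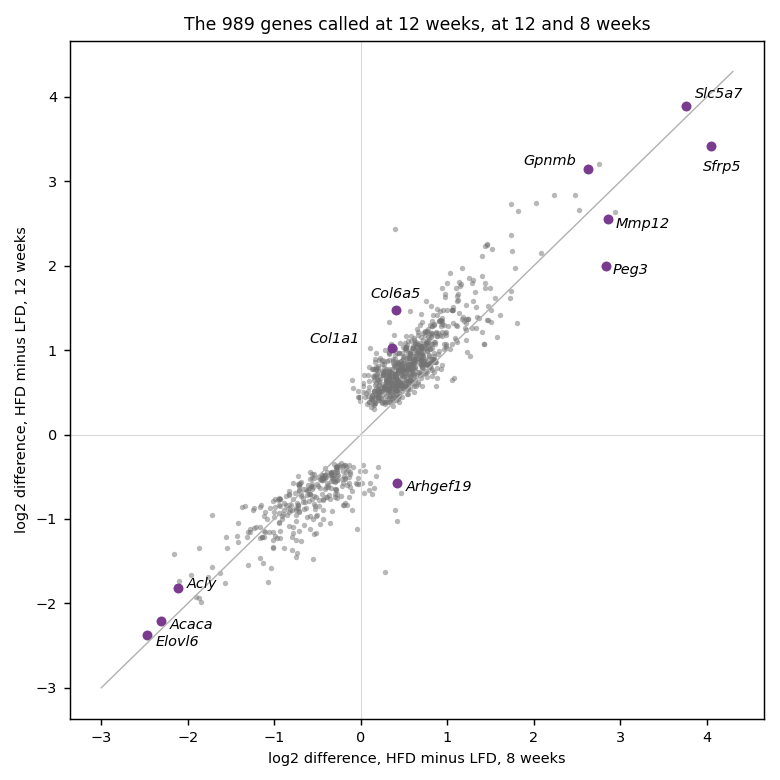
Diet difference at 12 weeks (vertical) against 8 weeks (horizontal) for the 989 genes called at 12 weeks (log2 scale, HFD minus LFD); the grey diagonal marks equal differences and named genes are filled. Of the 989 points, 967 have the same sign at both times, and Arhgef19 is among the 22 that do not.

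Genes chosen without the arrays 3 were read on that pair. The pair differed in liver transcripts too, with 0 of the 27 hepatocyte genes higher in HFD array 3 and a median of −2.48. On arrays 1, 2 and 4 of both diets 438 genes passed limma's test, and HFD was the higher diet for 324 of them and the lower one for 114. Of the 324, 317 (97.8%) were higher in HFD array 3 than in LFD array 3, by a median of 0.93. Of the 114, 109 (95.6%) were lower there, with a median of −0.79, against 60.5% of same sign among the genes not called. Slc5a7 differed by 4.97 between the arrays 3, Sfrp5 by 3.80, Itgax by 3.05, Cdkn1a by 2.33 and Saa3 by 1.28, and Acaca by −2.23. A single pair of arrays has no replicate, so no test was made, and LFD array 3 still held more Alb (11.84) than HFD array 3 (6.45). Genes on the same array are not separate replicates, so these shares only describe the arrays 3.

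**Figure D5:**
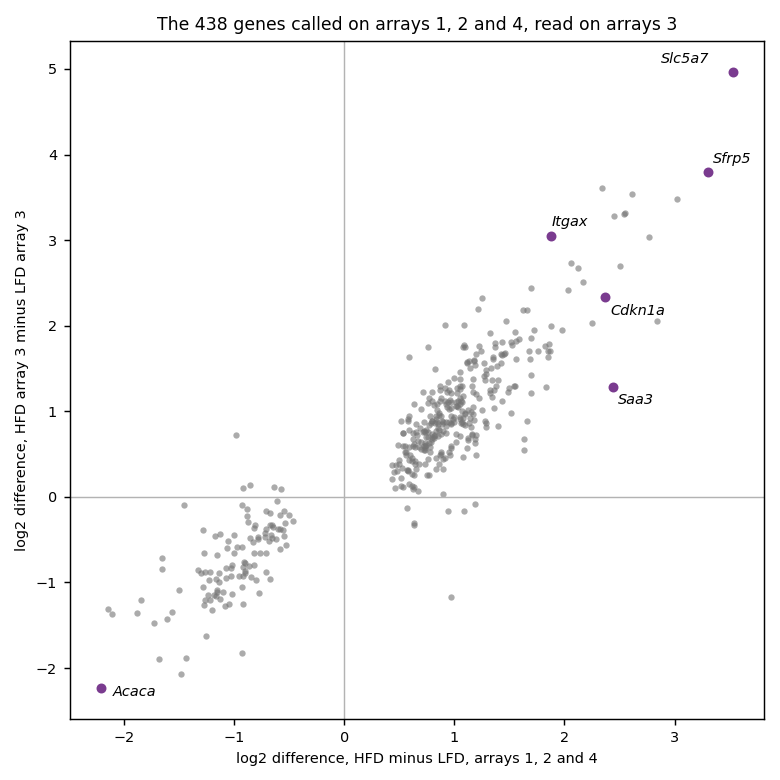
Difference between HFD array 3 and LFD array 3 (vertical) against the difference of the other 3 arrays of each diet (horizontal), for the 438 genes called on arrays 1, 2 and 4 (log2 scale). Points in the upper right and lower left have the same sign in both, which holds for 317 of 324 higher and 109 of 114 lower genes.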

How the data were processed

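Gonadal fat RNA was measured on 25 arrays, of which 8 enter this comparison. The others came from mice on chow, labelled 12 weeks old, and from mice after 4 or 8 weeks of either diet. The deposited values are log2 intensities per transcript cluster (34472 clusters), which the authors made with Transcriptome Analysis Console 4.0.2, per the submitters' processing notes; how background was corrected and probes were summarised and normalized is not given in the sources used here. Values were used as deposited. The platform annotation gave 1 symbol to 23521 clusters, several to 1814 and none to 9137. Each of 22180 genes was tested; 1082 had more than 1 cluster, and 1 cluster was kept for each. Arrays measured biological replicates, and their number limits the precision.

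Group means were fitted on all 25 arrays with limma 3.58.1 in R 4.3.3 (lmFit and eBayes, 18 residual degrees of freedom, median standard error 0.153). The members and the 77 gene lists were chosen with earlier results of these data known. The genes named were a panel, the called genes with the largest separated differences or the smallest p, up to 6 called members per list, the smallest p of each difference between times, and the largest changes outside the lists; a few other list members were added after their values were seen, and 64 called genes with provisional or similar names were counted and not named. Alternatives changed the normalization, filter, clusters, moderation, weights, call rule, liver transcripts and arrays included. Deviations of HFD and LFD arrays of the same number from their group means correlated by 0.265, 0.0261, 0.599 and 0.0381 (numbers 1 to 4). Those of unlike number correlated by −0.43 to 0.282. Only the arrays 3, the lowest of each diet in liver transcripts, lay above that range. The numbers were not taken to pair mice, and these values do not settle whether they do.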

Additional observations from a re-analysis of the deposited data

Results flagged for a closer look

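In 26 of 372 groups of 4 arrays, 1 for each diet and named gene or hepatocyte mean, a single array lay so far from the other 3 that its gap took up most of the group's range; chance alone sets apart about 1 in 20 groups. Of these, 6 were on LFD array 1, 5 on HFD array 3, 4 each on HFD array 2 and LFD arrays 2 and 3, and 3 on LFD array 4. The widest concerned liver transcripts. Alb was at 6.45 on HFD array 3, against 12.96 to 13.09 on the other HFD arrays, and at 11.84 on LFD array 3, against 13.16 to 13.42 on the other LFD arrays. The mean of the hepatocyte genes was 5.12 on HFD array 3, against 9.14 to 9.66.

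LFD array 1 had lower values of myeloid genes than the other LFD arrays: 6.43 for Clec12a, 8.30 for Cybb, 8.07 for Itgb2 and 6.42 for Laptm5. It was also low for Col6a1 (9.80) and high for Fads1 (10.73). HFD array 2 was low for Ccl9 (11.20), Itgam (8.80), Tbxas1 (7.34) and Metrnl (7.19) within its group. HFD array 3 was high for Il10ra (7.76) and Ptger2 (6.31) and low for Pdha1 (9.56). LFD array 2 was high for Ncf4 (6.64), Saa3 (7.08) and Stil (4.33) and low for Ddo (6.27). LFD array 3 was low for Hmgcs1 (10.14) and Lipa (10.27) and high for Slc44a3 (9.05). LFD array 4 was high for Acss2 (10.97) and Ppp1r3b (9.74) and low for Mrps35 (7.17).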

How the results depend on the processing

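The count of 989 genes between the diets at 12 weeks was 1787 with array weights, 1865 without 3 chow and 4-week arrays with epididymis transcripts and 438 without the arrays 3. Leaving out 1 array gave 558 to 944, and the count moved by over 1.5 times without HFD array 1 (638), HFD array 3 (598) or LFD array 1 (558). Other alternatives gave 742 to 1457; the hepatocyte split as a block gave 1457 with 819 higher and 638 lower. With the replicate number as a block, which the data do not show to pair the mice, the count was 1211, and 5 of 185 named genes lost their call. The diet difference at 12 minus 8 weeks was called for 356 genes and that at 12 minus 4 weeks for 510 by the design text's rule (unadjusted p under 0.05 and 1.5-fold), and the 12 minus 8 week difference for 155 genes with the hepatocyte block, 154 of them lower at 12 weeks; both stayed at 0 under every other alternative run. Of the 185 named genes 46 lost their call without the arrays 3, 14 with the hepatocyte covariate and 2 with quantile normalization. Adipoq turned positive with quantile normalization (0.00), median centring (0.01), array weights (0.02), without the arrays 3 (0.04), without HFD array 1 (0.06) and without LFD array 3 (0.04), and ranged from −0.08 to 0.06 when 1 array was left out. Alb turned positive with the hepatocyte covariate (0.08) and without HFD array 3 (0.10), ranging from −2.12 to 0.10 when 1 array was left out, and Ucp1 turned negative without the arrays 3 (−0.02). The causes were not tested.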

Other observations

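Of 25 genes of the unfolded protein response 1 rose, Edem1, which helps to clear misfolded proteins (0.46 ± 0.11), with a list median of 0.11. That was 4.0% of the list, near the 4.46% called over all genes. Of 21 interferon-stimulated genes 1 rose (4.8%, also near that share), Oasl1 (0.62 ± 0.17), with a median of 0.17. It was called in 1 of the 8 fits that left out 1 array. Lbp, which presents bacterial lipopolysaccharide to its receptor, was at 11.64, 11.77, 11.89 and 11.60 under HFD and at 10.95, 11.14, 10.66 and 10.96 under LFD (0.80 ± 0.17). Of 14 acute phase genes 2 rose, Lbp and Saa3, and 2 fell, Cp and the orosomucoid gene Orm3 (−1.33 ± 0.33). Without the arrays 3, 1 rise and 1 fall of these were called. Egln3, an oxygen-sensing hydroxylase, fell by 1.00 ± 0.24 among 16 hypoxia targets, of which 3 fell and 1 rose, and it lost its call without LFD array 1. In the hypoxia list 2 falls and no rise were called without the arrays 3.

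Prox1, a transcription factor of lymphatic endothelium and of hepatocytes, was at 5.76, 5.22, 4.12 and 5.76 under HFD and at 7.37, 7.16, 4.33 and 6.42 under LFD, lowest on the arrays 3 as Alb and Xist were.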
